A study of Mus musculus with 6 samples.

Results

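Thioredoxins, peroxiredoxins and glutathione peroxidases remove peroxides, and Txn1, Txnrd1, Srxn1, Gsr, Prdx1, Prdx6, Gpx1, Gpx2, Gpx3 and Gpx4 are the 10 genes of these systems described here in mouse lung. They were taken by gene symbol from an mRNA table of 22564 genes, and all 10 were among the 14760 genes with at least 0.5 FPKM in at least 1 library. FPKM counts sequenced fragments relative to the length of the transcript and to the size of the library, so it is a level per length. In the primary blast lung injury (PBLI) group, anesthetized male C57BL/6 mice aged 8 to 10 weeks took a blast wave of 0.5 bar to the chest, and the right upper lobe was taken 6 h later. The Control mice were also anesthetized but received no blast. No transgene or other agent is named in the labels of either group. Each library came from the pooled lungs of 2 mice, with 3 libraries per group and 12 mice in all, so that p-values measure the spread between pools. The PBLI libraries are called G3, G4 and G5 in the table, which shows their group but does not say which numbered sample each of them is.

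Thioredoxin is a small protein that reduces disulfide bonds, and it is itself reduced by thioredoxin reductase with electrons from NADPH. Peroxiredoxins destroy hydrogen peroxide with a reactive cysteine that thioredoxin or glutathione then restores, and sulfiredoxin rescues peroxiredoxins whose cysteine has been overoxidized. Glutathione peroxidases use glutathione in the same task, and glutathione reductase returns the oxidized glutathione to its reduced form. In the lung these enzymes meet oxidants from air and from inflammatory cells, and several of the genes are known targets of the transcription factor NRF2.

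After blast exposure, Txnrd1, Gsr and Srxn1 were higher, which encode the reductases of thioredoxin, of glutathione and of overoxidized peroxiredoxins. The peroxidase genes Gpx2 and Prdx6 were higher as well. The other peroxidase genes of the set did not pass the test, nor did Txn1, whose product also restores peroxiredoxins. Differences between these genes were not tested. Srxn1, Txnrd1, Gpx2, Prdx6 and Gsr rose in the PBLI group by limma at an adjusted p under 0.05. This is 5 of 10 genes beside 1.15% of all tested genes. The 10 genes were chosen with earlier results of these data known, so this share and those below only describe them. None of the 10 fell, beside 0.928% of all tested genes, and 2.08% of all tested genes were called in either direction. When 1 library was left out, 0 to 4 of the 10 were called higher, while 4 to 292 of all tested genes were. With an unadjusted p of 0.05 or less and at least a 2-fold change, the thresholds of the study, Srxn1, Txnrd1 and Gpx2 were higher, 3 of 10 beside 1.38%. At an unadjusted p of 0.05 or less without a limit on the fold, 7 of 10 were higher, beside 9.15%. The fitted change was above 0 for all 10, with a median log2 fold change of 0.67 against -0.02 over all tested genes. Fold changes are on the scale of log2(FPKM + 0.5) and understate the change of low genes. In 8 of 10 genes every PBLI library lay above every Control library, beside 13.3% of all tested genes, and in none did every PBLI library lie below every Control library, beside 14.4%.

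Of the 6 libraries, PBLI G5 and Control 1 stood apart most. Quality weights estimated over all tested genes were 0.28 for PBLI G5 and 0.69 for Control 1, against 0.95 to 2.44 for the other libraries. The neutrophil genes described further on were also lowest in PBLI G5 among the PBLI libraries. The summed FPKM of all genes was 361907 to 385757 in PBLI libraries and 358873 to 371906 in Control libraries. The number of the 10 genes called depended on single libraries. It fell to 0 without PBLI G3 or Control 2 and to 1 (Srxn1) without Control 1, and it was 2 without PBLI G4 or Control 3 and 4 without PBLI G5. With both G5 and Control 1 left out it was also 4, and Prdx6 was not called (limma adjusted p = 0.103). Over all tested genes the number called higher changed too. It went from 170 with all libraries to 8 without PBLI G3, 4 without Control 2 and 40 without Control 1. It was 54 without PBLI G4, 60 without Control 3, 292 without PBLI G5 and 149 without both G5 and Control 1.

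The selenium atom of Txnrd1 and of Gpx1, Gpx2, Gpx3 and Gpx4 sits in a selenocysteine, which the ribosome inserts at a TGA codon that would otherwise end translation. The codon is shown because it sets these 5 genes apart from the other 5 of the set, and because the mRNA level of some of these genes is known to follow the selenium supply. In each line TGA is in capitals with the coding bases around it, read 5′ to 3′ on the coding strand from GRCm38.p6 at positions of the GENCODE M21 annotation.
Txnrd1: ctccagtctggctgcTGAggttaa
Gpx1: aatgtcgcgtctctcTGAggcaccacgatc
Gpx2: aatgtggcgtcactcTGAggaacaactacc
Gpx3: aacgtagccagctacTGAggtctgacagac
Gpx4: aacgtggcctcgcaaTGAggcaaaactgac
The Txnrd1 stretch lies at chr10:82896022-82896045 (plus strand, exon 15 of 15), where the codon is number 612 of 613. In the peroxidases the codon lies far from the end, at number 47 of 201 in Gpx1 (chr9:108339436-108339465, plus strand, exon 1 of 2) and 40 of 190 in Gpx2 (chr12:76795244-76795273, minus strand, exon 1 of 2). It is number 73 of 199 in Gpx3 (chr11:54907241-54907270, plus strand, exon 3 of 6) and 73 of 197 in Gpx4 (chr10:80054722-80054751, plus strand, exon 3 of 7). Gpx1 and Gpx2 shared 24 of 30 bases here, the most of any pair, and Gpx3 shared 15 of 30 with either of them. Of the 5 selenocysteine genes, Txnrd1 and Gpx2 were called higher, beside 1.15% of all tested genes, and the other 3 did not pass. The call of Gpx2 was lost whenever 1 library was left out.

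Srxn1 encodes sulfiredoxin, the reductase of overoxidized peroxiredoxins (ENSMUSG00000032802, chromosome 2, 152105516 to 152111376 in GRCm38). Its level was 45.9, 37.8 and 71.7 FPKM in PBLI G3, G4 and G5, against 8.98, 5.81 and 6.41 FPKM in Control 1, 2 and 3. The lowest PBLI library was far above the highest Control library, and G5 was the highest. The mean was 51.8 ± 17.7 FPKM in the PBLI group and 7.07 ± 1.68 in the Control group (SD, n = 3 each), which gave 2.76 on the log2 scale with a standard error of 0.25 (limma, adjusted p = 0.00597). This was the largest change of the 10 genes and the 16th smallest p of all tested genes. Leaving out 1 library moved the log2 fold change between 2.501 and 2.958. The adjusted p was 0.052 without PBLI G3 and 0.071 without Control 2, and under 0.05 without any other single library.

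Txnrd1 encodes the cytosolic thioredoxin reductase (ENSMUSG00000020250, chromosome 10, 82833951 to 82897712), a span of 63762 bases against 38519 for the locus given with its FPKM. Its level was 62.2, 57.6 and 100.5 FPKM in PBLI G3, G4 and G5, against 23.7, 19.4 and 21.7 FPKM in Control 1, 2 and 3. The groups were apart, and G5 was again the highest library. The mean was 73.4 ± 23.5 FPKM in the PBLI group and 21.6 ± 2.16 in the Control group (SD, n = 3 each), which gave 1.70 on the log2 scale with a standard error of 0.21 (limma, adjusted p = 0.0148). The adjusted p lost the threshold without PBLI G3 (0.0745), Control 1 (0.0741), Control 2 (0.0993) or Control 3 (0.0561), with a log2 fold change between 1.45 and 1.85 over all 6 omissions.

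Txn1 encodes thioredoxin itself, the substrate of that reductase (ENSMUSG00000028367, chromosome 4, 57943373 to 57956411). It was at 105.8, 100.5 and 133.4 FPKM in PBLI G3, G4 and G5, against 102.0, 99.8 and 89.0 FPKM in Control 1, 2 and 3. PBLI G4 lay below Control 1, so the groups overlapped, and only G5 was clearly higher. The log2 fold change was 0.21 (95% interval -0.07 to 0.50, limma, adjusted p = 0.378). The ratio of Txnrd1 to Txn1 was 0.587, 0.573 and 0.753 in the PBLI libraries, against 0.232, 0.194 and 0.244 in the Control libraries. The ratios did not overlap, and the two-sided exact permutation test gave p = 0.1, the smallest that 3 libraries against 3 allow.

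Prdx1 encodes an abundant peroxiredoxin that thioredoxin reduces and sulfiredoxin repairs (ENSMUSG00000028691, chromosome 4, 116685544 to 116700822). It was at 198.5, 193.8 and 235.4 FPKM in PBLI G3, G4 and G5, against 171.1, 156.3 and 152.9 FPKM in Control 1, 2 and 3. The groups were apart by a small margin. The log2 fold change was 0.38 (95% interval 0.14 to 0.62) and did not pass after adjustment (limma, adjusted p = 0.115), although it did with weighted libraries (adjusted p = 0.0359). The ratio of Srxn1 to Prdx1 was 0.231, 0.195 and 0.305 in the PBLI libraries, against 0.0525, 0.0372 and 0.0419 in the Control libraries. All PBLI ratios were above all Control ratios (exact permutation test, two-sided, p = 0.1, the smallest possible here).

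Prdx6 encodes a peroxiredoxin that depends on glutathione and also has a phospholipase activity, known in the lung for its part in the turnover of surfactant phospholipid (ENSMUSG00000026701, chromosome 1, 161240112 to 161251219). Its level was 473.1, 419.9 and 534.4 FPKM in PBLI G3, G4 and G5, against 215.8, 216.7 and 299.0 FPKM in Control 1, 2 and 3. The groups were apart, and Control 3 was the highest of its group. The log2 fold change was 0.97 (standard error 0.16, limma, adjusted p = 0.0291). It was lost without PBLI G3 (adjusted p = 0.128), PBLI G4 (0.0599), Control 1 (0.133) or Control 2 (0.163), and also with no filter on low values (0.0634) or no mean-variance trend (0.0673). In absolute FPKM no other gene of the set gained as much, with a mean of 475.8 ± 57.3 in the PBLI group and 244 ± 47.8 in the Control group (SD, n = 3 each). Prdx6 made up 30.78%, 28.87% and 31.11% of the summed FPKM of the 10 genes in the PBLI libraries, against 22.03%, 21.29% and 26.66% in the Control libraries.

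Gsr encodes glutathione reductase (ENSMUSG00000031584, chromosome 8, 33652523 to 33698163). It was at 57.6, 48.5 and 44.1 FPKM in PBLI G3, G4 and G5, against 27.8, 24.4 and 23.8 FPKM in Control 1, 2 and 3. The groups were apart, but unlike Srxn1 and Txnrd1 the order within the PBLI group put G3 first and G5 last. The mean was 50.1 ± 6.91 FPKM in the PBLI group and 25.3 ± 2.13 in the Control group (SD, n = 3 each), which gave 0.96 on the log2 scale with a standard error of 0.12 (limma, adjusted p = 0.0162). The log2 fold change stayed between 0.86 and 1.05 when 1 library was left out. The adjusted p was then 0.079 without PBLI G3, 0.0528 without PBLI G4, 0.0621 without Control 1, 0.11 without Control 2 and 0.0583 without Control 3.

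Gpx2 encodes a glutathione peroxidase known from epithelia, mainly of the gut (ENSMUSG00000042808, chromosome 12, 76792333 to 76795554). It was at 21.5, 15.5 and 26.1 FPKM in PBLI G3, G4 and G5, against 9.53, 5.39 and 5.70 FPKM in Control 1, 2 and 3. Its groups were apart. The log2 fold change was 1.56 (standard error 0.26, limma, adjusted p = 0.0311), and the mean was 21.02 ± 5.29 FPKM in the PBLI group and 6.87 ± 2.31 in the Control group (SD, n = 3 each). This call was lost whenever a single library was left out, since the adjusted p was between 0.0509 and 0.163 without PBLI G3, G4 or G5 or Control 1, 2 or 3, 0.0672 with no filter and 0.0636 with no trend. The locus given for Gpx2 in the table spans 156126 bases, far more than the 3222 of the gene, because it is merged with its neighbours. How the authors' software divided the reads of such a merged locus among its genes is not known here, so the FPKM of Gpx2 are less certain for it.

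Gpx1, the widespread cytosolic glutathione peroxidase (ENSMUSG00000063856, chromosome 9, 108338903 to 108340343), was at 105.2, 103.3 and 102.1 FPKM in PBLI G3, G4 and G5, against 99.5, 87.3 and 87.3 FPKM in Control 1, 2 and 3. The groups were apart by little, with a log2 fold change of 0.18 (95% interval -0.01 to 0.38, limma, adjusted p = 0.287). Gpx3, the secreted form found in plasma and in extracellular fluid (ENSMUSG00000018339, chromosome 11, 54902453 to 54910377), was at 351.4, 371.9 and 354.4 FPKM in the PBLI libraries, against 228.2, 313.9 and 323.5 FPKM in the Control libraries. Control 1 was far below the other Control libraries, and the log2 fold change was 0.33 (95% interval 0.00 to 0.66, limma, adjusted p = 0.257). Gpx4 reduces peroxidized phospholipids within membranes and restrains ferroptosis (ENSMUSG00000075706, chromosome 10, 80047166 to 80056439). It was at 115.8, 105.5 and 115.9 FPKM in the PBLI libraries, against 92.8, 89.0 and 112.4 FPKM in the Control libraries. PBLI G4 lay below Control 3, and the log2 fold change was 0.20 (95% interval -0.05 to 0.45, limma, adjusted p = 0.348). For these 3 genes the intervals reach no higher than 0.66, while that of Gpx2 starts at 0.96. The differences between the genes were not tested. The locus of Gpx4 in the table spans 672333 bases against 9274 in the annotation, so it too is merged with other genes, and its FPKM carry the same doubt.

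**Figure D1:**
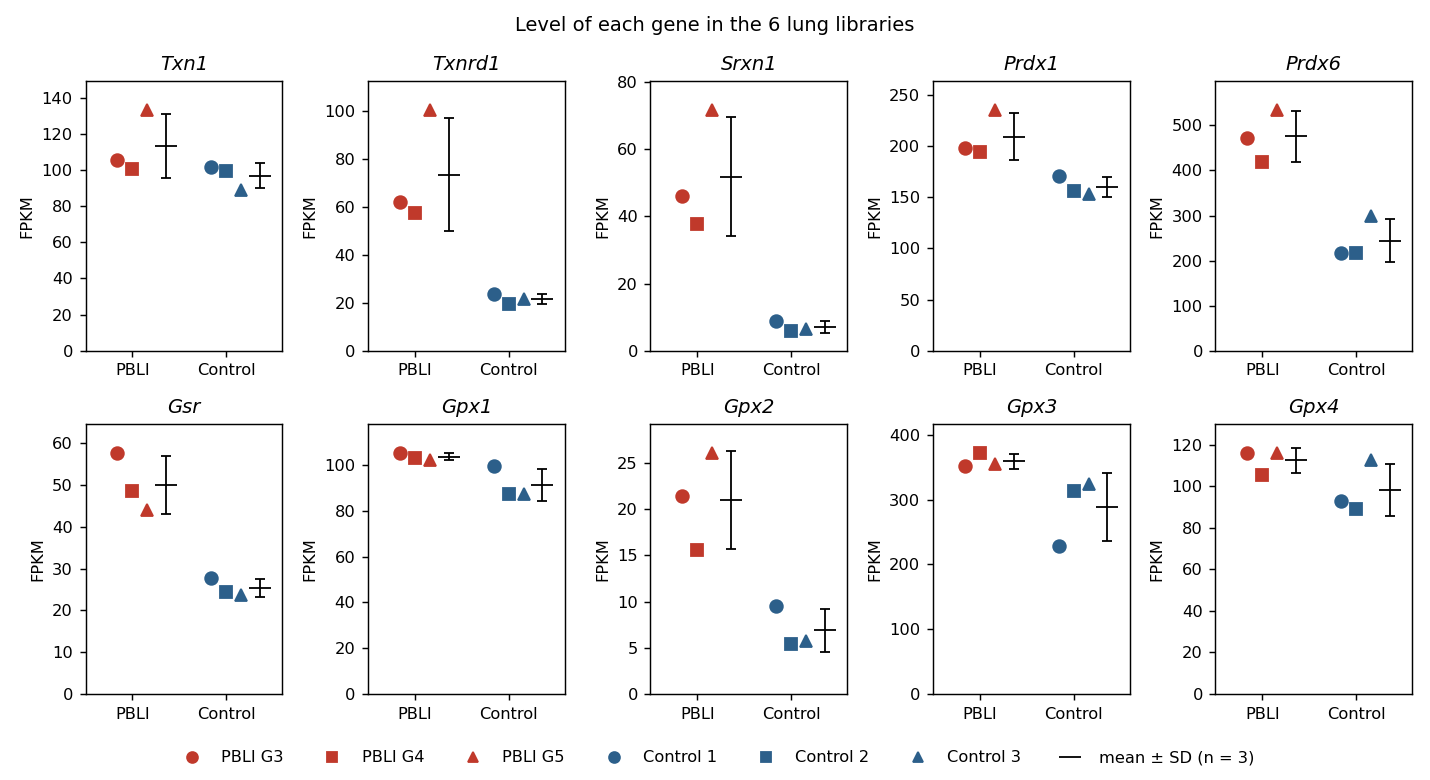
FPKM of each of the 10 genes in every library, with the PBLI group left of the Control group in each panel; points are libraries (3 per group), and the lines are the mean and the SD. The groups overlap in Txn1 and Gpx4 and lie apart in the other 8 genes, as in Srxn1 (37.8 to 71.7 FPKM in PBLI libraries and 5.81 to 8.98 FPKM in Control libraries).

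**Figure D2:**
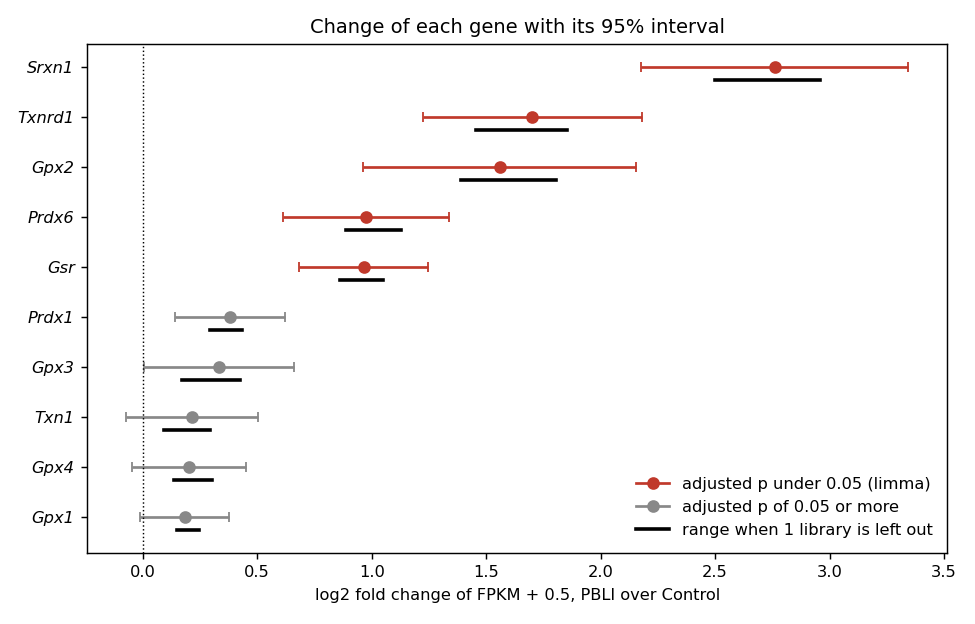
Log2 fold change of FPKM + 0.5, PBLI over Control, for each gene with its 95% interval from limma over 6 libraries, and the range of the fitted value when each library is left out in turn. Srxn1 is at 2.76, Txnrd1 at 1.70 and Gpx2 at 1.56, and the intervals of Txn1, Gpx1 and Gpx4 include 0.

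The order of the levels changed between the groups. In the PBLI group Prdx6 led with 475.8 FPKM, followed by Gpx3 (359.2), Prdx1 (209.2), Txn1 (113.2), Gpx4 (112.4), Gpx1 (103.5), Txnrd1 (73.4), Srxn1 (51.8), Gsr (50.1) and Gpx2 (21.02). In the Control group Gpx3 led with 288.5 FPKM, followed by Prdx6 (244), Prdx1 (160.1), Gpx4 (98.1), Txn1 (96.9), Gpx1 (91.4), Gsr (25.3), Txnrd1 (21.6), Srxn1 (7.07) and Gpx2 (6.87). Among neighbours in the PBLI order, the libraries of Txn1 overlapped with those of Gpx4, and those of Srxn1 with those of Txnrd1 and of Gsr. In the Control order, Gpx3 overlapped with Prdx6, Txn1 with Gpx4 and with Gpx1, and Srxn1 with Gpx2. The other neighbours did not overlap, by very little in the case of Gpx4 and Gpx1 in the PBLI group and of Gsr and Txnrd1 in the Control group. Together the 10 genes summed to 1537, 1454 and 1718 FPKM in PBLI G3, G4 and G5, against 979 to 1122 FPKM in the Control libraries. Within the PBLI group the coefficient of variation was 34.1% for Srxn1 and 32.1% for Txnrd1 but 1.49% for Gpx1 and 3.09% for Gpx3.

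Other genes with related roles were counted in 8 lists. By limma's adjusted p, 1 of their 49 tested genes rose and none fell, beside 1.15% and 0.928% of all tested genes, while the unadjusted p was 0.05 or less for 10 in the upward and 5 in the downward direction (9.15% and 10% of all tested genes). The gene that rose was Sesn2, a sestrin induced by stress, with 6.03, 5.32 and 5.83 FPKM in PBLI G3, G4 and G5, against 3.28, 2.70 and 2.60 FPKM in Control 1, 2 and 3 (log2 fold change 0.89, adjusted p = 0.0377). It was counted here in a list of 10 genes placed beside the thioredoxin system, and the median log2 fold change of that list was -0.16. Txnl1, which encodes a protein related to thioredoxin, averaged 25.9 FPKM in the PBLI group and 17.8 in the Control group (log2 fold change 0.51, adjusted p = 0.134). Of the 4 other peroxiredoxin genes tested none passed, and Prdx2, which is abundant in red cells, averaged 49.6 FPKM in the PBLI group and 61.4 in the Control group (log2 fold change -0.30, adjusted p = 0.232), while Prdx5 averaged 44.8 FPKM in the PBLI group and 39.1 in the Control group (log2 fold change 0.19, adjusted p = 0.411). Gpx8 and Gpx7 gave -0.22 and -0.47 (adjusted p = 0.316 and 0.417), while Gpx5, Gpx6 and Prdx6b were listed at 0 in all 6 libraries.

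The 4 glutaredoxin genes, which use glutathione to reduce disulfides, gave no call, with Glrx at 13.6 FPKM in the PBLI group and 7.28 in the Control group (log2 fold change 0.78, limma, adjusted p = 0.178) and Glrx3 at 0.32 (0.186). None of the 4 methionine sulfoxide reductase genes passed, with Msrb3 at -0.34 (adjusted p = 0.096) and the selenoprotein gene Msrb1 at 0.63 (0.16). Superoxide dismutases and catalase gave no call among 4 genes. Sod3, the extracellular form, averaged 23.3 FPKM in the PBLI group and 32.8 in the Control group (log2 fold change -0.48, adjusted p = 0.0569), and the mitochondrial Sod2 gave 0.38 (0.136). In the 8 genes that make or insert selenocysteine there was no call, with Sephs2 at 0.58 (adjusted p = 0.0608) and Scly at -0.31 (0.229). The 13 other selenoprotein genes had a median of 0.02, with Selk at 0.33 (adjusted p = 0.0757) and Vimp at 0.38 (0.17). The 8 tested genes of NADPH oxidases, which make oxidants, had no call either. Cybb, the subunit of the phagocyte enzyme, gave -0.41 (adjusted p = 0.417) and Nox1 -0.77 (0.258). Nox1 was near the floor, at 0.11, 0.332 and 0.0803 FPKM in PBLI G3, G4 and G5, against 1.23, 0.474 and 0.372 FPKM in Control 1, 2 and 3. It reached 0.5 FPKM in Control 1 only.

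Of 17 other known NRF2 targets, 11 rose and none fell by limma's adjusted p, beside 1.15% and 0.928% of all tested genes, with a median log2 fold change of 0.95. This list was chosen with earlier results of these data known. Gclm, the modifier subunit of the enzyme that starts glutathione synthesis, was at 95.1, 77.8 and 96.4 FPKM in PBLI G3, G4 and G5, against 28.0, 26.3 and 27.4 FPKM in Control 1, 2 and 3 (log2 fold change 1.70, adjusted p = 0.00165). The cystine importer gene Slc7a11 was at 30.3, 25.2 and 44.6 FPKM in the PBLI libraries, against 1.74, 0.748 and 0.378 FPKM in the Control libraries (log2 fold change 4.61, adjusted p = 0.00385). Both were apart between the groups, and Slc7a11 was highest in G5 like Srxn1.

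**Figure D3:**
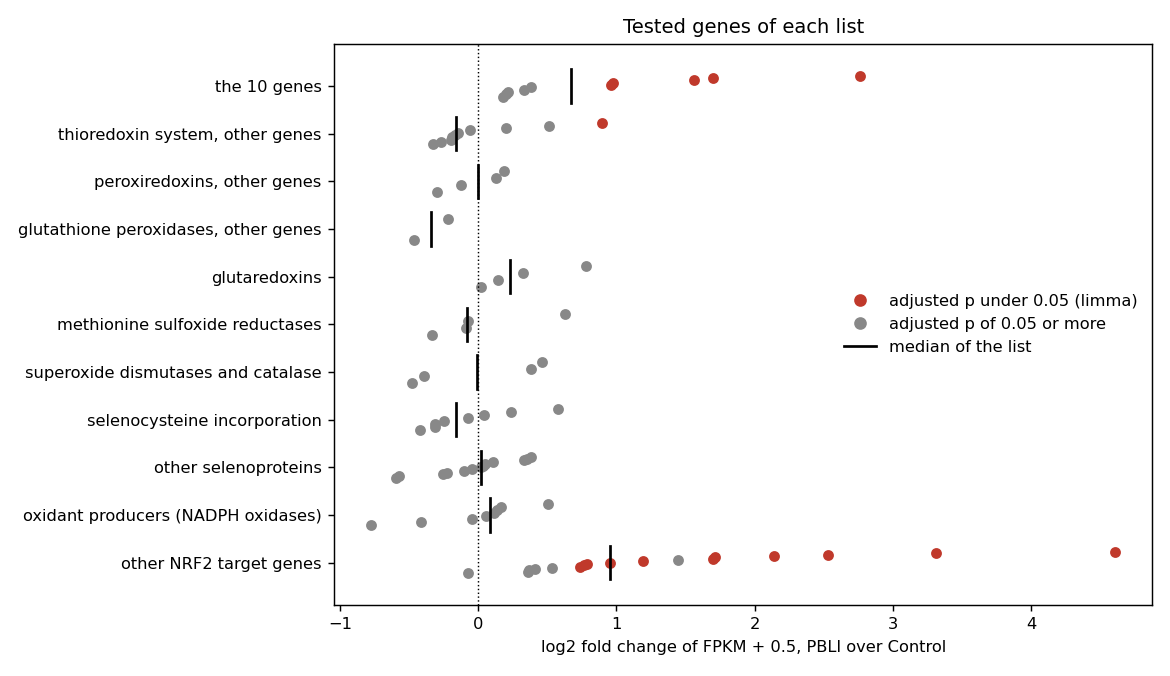
Log2 fold change of FPKM + 0.5, PBLI over Control, of each tested gene in the 10 genes described, in 8 lists of related genes, in the NADPH oxidases and in 17 other NRF2 targets, with a row per list, a point per gene (red at an adjusted p under 0.05) and a bar at the median. The 8 related lists spread around 0 with 1 gene called among 49, while the 10 genes and the NRF2 targets have medians of 0.67 and 0.95. The genes and lists were chosen with earlier results of these data known, so the medians only describe them.

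Over the 6 libraries, the genes with a pattern most like that of Srxn1 were Hmox1, Ms4a6d, Phf10, Trib3 and Gfpt1, with Pearson's r of 0.999 to 0.995 among 13077 genes with a mean of at least 1 FPKM. Hmox1 encodes heme oxygenase, and Trib3 a pseudokinase known from the response to cell stress. Of the set, Txnrd1 came 6th (r = 0.994), Gpx2 56th (0.98), Prdx1 145th (0.963), Prdx6 327th (0.934) and Gsr 345th (0.932). Gpx1 came 965th (0.855), Txn1 1811th (0.75), Gpx4 2321st (0.68) and Gpx3 2924th (0.6). These values only describe 6 libraries that form 2 groups, and all genes share the depth and the tissue composition of each library.

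The starts of Srxn1, Txnrd1 and Prdx1 are printed because they held a match to the antioxidant response element core, the element that NRF2 is known to bind, and because Srxn1 and Txnrd1 had the closest patterns of the set. Each runs 5′ to 3′ from 250 bases before to 50 after a transcript start in RefSeq (GRCm38.p6, plus strand), and capitals mark the matches to TGACNNNGC or to TGANTCA, a motif of AP-1 factors, searched on both strands. The windows are chr2:152105274-152105573 for Srxn1, chr10:82858956-82859255 for Txnrd1 (the second window of that gene) and chr4:116685349-116685648 for Prdx1.
Srxn1: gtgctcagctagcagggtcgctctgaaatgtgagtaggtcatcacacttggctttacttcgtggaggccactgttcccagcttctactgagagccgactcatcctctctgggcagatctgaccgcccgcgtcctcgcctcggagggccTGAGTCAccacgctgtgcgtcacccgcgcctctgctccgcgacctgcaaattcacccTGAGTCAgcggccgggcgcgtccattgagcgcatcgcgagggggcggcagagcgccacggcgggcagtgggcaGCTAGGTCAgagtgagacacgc
Txnrd1: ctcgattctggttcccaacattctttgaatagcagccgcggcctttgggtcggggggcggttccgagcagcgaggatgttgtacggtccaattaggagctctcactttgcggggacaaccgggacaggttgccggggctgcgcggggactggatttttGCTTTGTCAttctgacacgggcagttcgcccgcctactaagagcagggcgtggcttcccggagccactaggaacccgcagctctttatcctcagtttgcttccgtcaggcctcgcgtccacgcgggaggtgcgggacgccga
Prdx1: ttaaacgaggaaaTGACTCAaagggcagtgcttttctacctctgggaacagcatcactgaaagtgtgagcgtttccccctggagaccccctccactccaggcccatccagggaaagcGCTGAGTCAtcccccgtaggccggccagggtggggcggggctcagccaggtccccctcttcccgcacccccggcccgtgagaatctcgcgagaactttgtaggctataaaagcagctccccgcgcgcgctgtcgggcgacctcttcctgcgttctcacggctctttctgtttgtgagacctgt
Srxn1 held TGACNNNGC on the other strand, read here as GCTAGGTCA, at position 28 from the start and TGAGTCA at -102 and -45. On the same strand as that match, Txnrd1 held GCTTTGTCA at -92, and Prdx1 held GCTGAGTCA at -133, which overlaps TGAGTCA at -131, and TGACTCA at -237. Over all windows of this length, TGACNNNGC was in 4071 of 32851 (12.4%) and TGANTCA in 2565 (7.81%), against 3 and 2 of the 13 windows of the 8 genes matched, and the windows of Txn1, Gpx1, Gpx2, Gpx3 and Gpx4 had neither. Matches are a description of the letters only, and no other spelling of either motif was searched.

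Some lists of cell markers lay apart between the groups, and others overlapped. The 11 neutrophil genes summed to 2374, 2048 and 552 FPKM in PBLI G3, G4 and G5, against 348, 223 and 341 FPKM in Control 1, 2 and 3 (exact permutation test, two-sided, p = 0.1, the smallest possible here), and limma called 1 of them higher by its adjusted p and 7 by an unadjusted p of 0.05 or less (1.15% and 9.15% of all tested genes). No marker of this list was at 0 in every library. PBLI G5 had the lowest neutrophil sum of the PBLI group and the highest Srxn1, Txnrd1, Prdx6, Prdx1, Gpx2, Txn1 and, by very little, Gpx4. Gsr and Gpx1 were highest in G3, where the neutrophil sum was also highest, and Gpx3 was highest in G4.

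The 8 alveolar type 2 genes, which mark the epithelial cell that makes surfactant, summed to 12396 to 13281 FPKM in PBLI libraries and 9450 to 10468 in Control libraries (ratio of means 1.30, exact permutation p = 0.1), with 1 called higher. The labels name the tissue as lung, and these lung markers were abundant in all 6 libraries. The 6 alveolar type 1 genes gave a ratio of 1.20 and the 6 endothelial genes 0.833 (exact permutation p = 0.1 for both). By limma, 1 endothelial gene was called lower (adjusted p = 0.0162) and no alveolar type 1 gene was called. Over all tested genes, 0.928% were called lower and 1.15% higher. The ratio was 0.79 for the 7 erythroid genes, 0.796 for the 5 club cell genes, 0.982 for the 6 ciliated cell genes, 1.02 for the 8 alveolar macrophage genes in the table, 2.40 for the 6 adipocyte genes and 0.876 for the 6 cardiac muscle genes, with exact permutation p of 0.2 to 0.9. In whole tissue, a different number of cells of a type and a different amount of RNA per cell cannot be told apart. The part of these markers in the changes of the 10 genes was not tested.

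**Figure D4:**
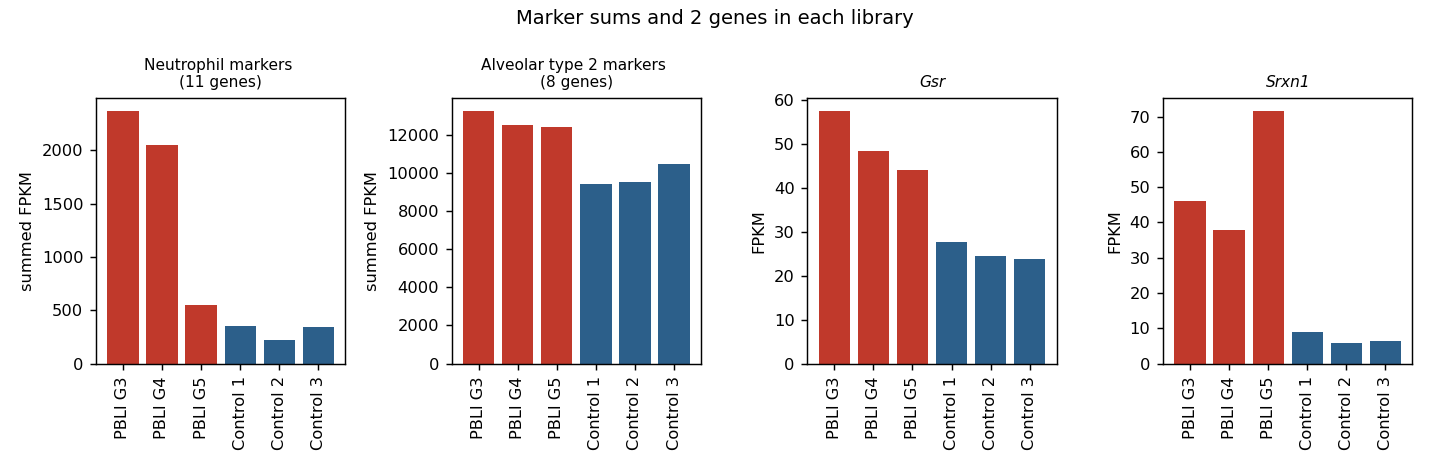
Summed FPKM of the neutrophil and alveolar type 2 marker genes, and FPKM of Gsr and Srxn1, one bar per library with the PBLI libraries left of the Control libraries. The neutrophil sum is 552 FPKM in PBLI G5 against 2374 in G3, while Srxn1 is highest in G5 (71.7 FPKM) and Gsr is highest in G3 (57.6 FPKM).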

How the data were processed

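Total RNA from 6 pools of mouse lung was depleted of ribosomal RNA and sequenced as paired reads with a stranded kit. For the deposited FPKM per gene, the authors ran cutadapt (1.9.3) on the reads, then hisat2 (2.0.4) on mm10, and then cuffdiff (2.2.1) on Ensembl gene models. Not given in the sources used here are the library scaling of cuffdiff, its use of strand and the tool behind the lncRNA FPKM. The deposited circRNA counts, made by the authors with STAR (2.5.1b) and DCC (0.4.4), are junction reads. The 18 other columns of values per sample were not used, since the read counts in them are not whole and are already scaled. Columns of the authors' own comparisons were not used either.

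FPKM were tested as log2(FPKM + 0.5) in R (4.3.3) with limma (3.58.1) and its mean-variance trend, PBLI against Control, with no covariate. The 14760 genes that reached 0.5 FPKM in at least 1 library were tested, and p was adjusted over all of them (Benjamini-Hochberg, threshold 0.05). The procedure was tested on simulated data. For sums and ratios, a two-sided exact permutation test over the libraries was used. The sequencing depth behind FPKM was not estimated, so its part in the precision is not known. Junction reads of circRNAs were 3568 to 4733 in PBLI libraries and 2513 to 3379 in Control libraries. Python (3.11.15), numpy (2.4.6), pandas (2.3.3), scipy (1.17.1) and matplotlib (3.10.9) were used.

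Named are the 10 genes, the 2 genes with the smallest p of each list of related genes, and the 5 genes most like the gene of the set with the smallest p. The genes, lists and tests were chosen with earlier results of these data known. Gene coordinates are those of GENCODE M21 on GRCm38, and their gene IDs match the table. Promoter windows from RefSeq were matched by symbol for 8 of the 10 genes, all but Gsr and Prdx6. Alternatives were other pseudocounts, filters, scalings, weights and trends, and leaving out libraries.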

Additional observations from a re-analysis of the deposited data

Results flagged for a closer look

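AK020357 is a lncRNA of 527 bases on the minus strand (chromosome 2, 152104683 to 152105209 in mm10), which the table places beside Srxn1 on the opposite strand. It was at 0, 0.278 and 0.216 FPKM in PBLI G3, G4 and G5 and was listed at 0 in Control 1, 2 and 3. It is given here because it has a signal in PBLI libraries, in a table that the comparisons above do not use, that the Control libraries lack. Its level is low in each library, and no test was made.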

How the results depend on the processing

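All 10 genes kept their direction under every alternative run. Of the 10 genes, 5 were called as higher with pseudocounts of 0.1 or 1, a mean of at least 1 FPKM, the same sum or median per library, or quantile normalization, and these were the same genes. With no filter on low values or no mean-variance trend 3 were called (Txnrd1, Gsr and Srxn1), and with weighted libraries 6, Prdx1 being added. Leaving out 1 library gave 0 to 4, with 0 without PBLI G3 or Control 2, 1 without Control 1, 2 without PBLI G4 or Control 3 and 4 without PBLI G5. Among all tested genes, 170 were higher and 137 lower at an adjusted p under 0.05 by limma. These counts were 106 and 68 with no filter, 70 and 59 with no trend, and 644 and 529 with weighted libraries. They ranged from 4 to 292 and from 0 to 168 when 1 library was left out, being 4 and 0 without Control 2 and 8 and 1 without PBLI G3, and 37 were lower without Control 1 and PBLI G5 together. With fewer libraries the test has fewer degrees of freedom, and the cause of the other differences was not tested. Tests of the read count columns were not run, since those columns do not hold whole counts. No paired analysis was possible because the columns of the PBLI libraries carry no replicate number of the labels. Since the depth behind FPKM is unknown, counting error could not be given.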

Other observations

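A single circRNA of the 3696 in the table was hosted by one of the 10 genes, a circRNA that overlaps Prdx6 on the same strand (chromosome 1, 161241636 to 161247413, minus strand). It had 0, 2 and 1 junction reads in PBLI G3, G4 and G5, against 0, 0 and 1 in Control 1, 2 and 3, too few to compare. The lncRNA table ties 5 transcripts to 4 of the genes. AK153802, antisense within Txnrd1, was at 0, 0.0697 and 0.162 FPKM in the PBLI libraries, against 0, 0 and 0.0745 FPKM in the Control libraries. NR_040442, antisense to Prdx1, was at 0, 0.208 and 0.162 FPKM in the PBLI libraries, against 0.251, 0 and 0.22 FPKM in the Control libraries. Both transcripts at Gpx4 were listed at 0 in all 6 libraries.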
